A study of Mus musculus with 10 samples.

Results

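The members are the genes of the cytosolic ribosomal proteins on a mouse expression array, followed in limbs of embryos labelled wild type or Dicer mutant. A probe set was taken where the platform annotation gave it exactly 1 gene symbol that was Rpl or Rps followed by a digit, Rplp followed by a digit, or Rpsa. The kinases Rps6ka and Rps6kb and pseudogenes were left out, and each gene was represented by its probe set with the highest mean log2 signal over all arrays. The rule found 108 probe sets and 52 genes, of 18193 genes with a probe set of 1 symbol. Of the 52 genes, 43 code for proteins of the ribosome, 22 of the large and 21 of the small subunit. A further 6 are paralogs (Rpl22l1, Rps27l, Rps4l, Rpl7l1, Rpl39l and Rpl3l), and 3 are named alike but are not ribosomal (Rps19bp1, Rps6kc1 and Rps6kl1). Another 25 ribosomal protein genes, Rpl5, Rpl10 and Rpl24 among them, were found only in probe sets that carry several symbols, so they are not members.

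The RNA came from the limbs of mouse embryos of a cross in which 1 parent carried prxcre and a single Dicer floxed allele and the other was homozygous for the Dicer floxed allele. By this cross every embryo of either group carries at least 1 floxed Dicer allele. There were 5 arrays labelled wild type and 5 labelled mutant, each group numbered 1 to 5, with total RNA of 1 sample on each array. The embryos were also genotyped for heterozygotes, and the labels do not say whether the wild type arrays include any. The labels give neither stage, limb type nor the number of embryos behind an array, and p-values therefore measure only the spread between these samples, which may be technical. The prxcre driver acts in limb bud mesenchyme, so ectoderm, blood, endothelium and muscle precursors are expected to keep Dicer. In such bulk RNA, fewer cells of a type and less RNA per cell cannot be told apart.

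The ribosome builds proteins from a small subunit, which reads the messenger RNA, and a large subunit, which joins the amino acids. Its protein genes are among the most highly expressed genes of growing cells, and their messages typically begin with a C followed by a run of pyrimidines, the 5′ terminal oligopyrimidine (TOP) tract, through which mTOR signalling sets their translation. Dicer cuts microRNA precursors into the mature microRNAs that hold messages down.

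Start sites are shown because the TOP tract is the sequence feature that the members are known to share. Starts from the RefSeq promoter table for GRCm38.p6 were used for 46 of the 52 genes. Rps14 was left out of the windows and the member counts, while the counts over all genes used every start in the table. Each window below has 15 bases on each side of the annotated start. The first 5 genes carry a C followed by at least 4 pyrimidines (C or T) at the start itself, and capitals mark that tract. They are Rps6 at chr4:86857353-86857382 (minus strand), Rps18 at chr17:33955651-33955680 (minus), Rps10 at chr17:27635230-27635259 (minus), Rpl38 at chr11:114668565-114668594 (plus) and Rplp2 at chr7:141447636-141447665 (plus).
Rps6: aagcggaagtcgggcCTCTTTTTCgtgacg
Rps18: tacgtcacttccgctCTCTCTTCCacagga
Rps10: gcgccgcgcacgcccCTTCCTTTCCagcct
Rpl38: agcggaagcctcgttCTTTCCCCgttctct
Rplp2: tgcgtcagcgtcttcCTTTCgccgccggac

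The next 3 genes are among those with the smallest p-values below, and their annotated starts do not open with such a tract. Here capitals mark the longest run of pyrimidines in the window. They are Rpl11 at chr4:136053379-136053408 (minus), Rpl22l1 at chr3:28805493-28805522 (plus) and Rpl7l1 at chr17:46782642-46782671 (minus).
Rpl11: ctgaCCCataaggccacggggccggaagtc
Rpl22l1: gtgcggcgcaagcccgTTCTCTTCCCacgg
Rpl7l1: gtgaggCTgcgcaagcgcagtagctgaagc

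Over the 44 annotated starts of 38 ribosomal genes, 8 starts (18.2%) opened with a C and at least 4 pyrimidines, on the strand of the gene. The same held for 823 of 32851 starts of all genes in the table (2.51%). A run of 8 or more pyrimidines anywhere in the window was found at 17 of the 44 starts (38.6%) and at 3943 of the 32851 starts of all genes. In Rpl22l1 the run of 10 pyrimidines begins 1 base after the annotated start. These counts describe letters at annotated starts, which need not be the bases where transcription begins.

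Dicer1, the targeted gene, was read by 2 probe sets. Probe set 1427941_at gave signals of 425, 233, 372, 390 and 706 in wild type arrays 1 to 5 and 226, 360, 221, 215 and 205 in mutant arrays 1 to 5. Probe set 1460571_at gave 771, 551, 753, 707 and 940 in wild type and 555, 774, 523, 534 and 506 in mutant arrays. In number 2 both probe sets were higher in the array labelled mutant than in the array labelled wild type, against the labels, and in the other 4 numbers both were lower in the mutant. The counts and medians of members are therefore given for all 10 arrays as labelled and for the 8 arrays without number 2, and a single gene's difference with the set it comes from. Over 8 arrays the Dicer1 differences, on the log2 scale, were -1.08 (SE 0.18, adjusted p = 0.0272) and -0.57 (SE 0.098, adjusted p = 0.0282), in limma with Benjamini-Hochberg adjustment over all 22519 tested probe sets. Over 10 arrays they were -0.74 and -0.36, with an adjusted p of 1.00 each. Number 2 was left out because of its Dicer1 signals, so the 8-array values of Dicer1 are a description and not an independent test. Over these 8 arrays same-numbered arrays correlated, but in numbers 1 and 3 barely more than with another number, and in number 5 less. A fit with the array number as a block is given beside the 8-array results where it changes a call or a count by over 1.5 times.

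The 10 arrays had median signals between 145.8 and 152.8. All 15 limb mesenchyme markers listed for the check of the tissue were tested, with Prrx1, Hand2, Pdgfra and Hoxd13 among them. Summed signals of the marker lists overlapped between wild type and mutant arrays: mesenchyme 18396 to 21634 against 19012 to 21994, red cells 28624 to 35810 against 24269 to 38626, and white blood cells 2331 to 3362 against 2301 to 2851. They also overlapped for ectoderm (4349 to 5480 against 4309 to 4694), muscle (2644 to 7065 against 2662 to 8338), endothelium (2413 to 2925 against 2378 to 2556) and cartilage (5956 to 7814 against 5060 to 7737). Over 8 arrays the summed white blood cell signals were 2331 to 2548 in wild type and 2453 to 2851 in mutant arrays, with a median difference of 0.16 on the log2 scale over 6 tested genes. The cartilage list had a median of -0.19, and its Col11a1 (-0.58, adjusted p = 0.0314) was the 1 marker called in the 8-array fit. With the block, Tyrobp (0.49) and Ctss (0.43) of the white blood cell list and Tbx4 (0.58) and Pdgfra (0.20) of the mesenchyme list were called higher, and Krt14 of the ectoderm list (-0.45) lower, with Col11a1 called again. That fit called 5.41% of all probe sets. As lists, mesenchyme and ectoderm did not move over 8 arrays. Their medians were 0.0020 and 0.00093, with 7 of 15 and 4 of 9 tested genes lower in the mutant. The part of cell composition in the results below was not tested.

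The brightest probe sets of ribosomal protein genes gave some of the highest signals of these limb samples. Of the 41 ribosomal genes that passed the filter on low signal, 34 had a geometric mean signal over 6000. Their means lay between 6738 and 11766, at or above the 99.5th percentile of all probe sets. The rule took the brightest probe set of each gene, so this rank rests partly on that choice. Other probe sets of these genes ranged from bright, as Rpl35 1436840_x_at (geometric mean 8719), to dim. The dim ones included Rpl35 1454833_at (70.2) and Rpsa 1416196_at (112). The highest signal of any probe set on an array was between 13265 and 14189, so these genes lay near the top of the scale, and saturation was not tested. Probe sets differ in brightness for the same amount of RNA, so the order of signals describes probe sets and not amounts of RNA. The 5 members with the brightest probe sets were Rps29, Rpl37a, Rps28, Rpl13a and Rps3a1. Rps29, a small subunit protein, gave 11632, 11373, 12243, 11734 and 12221 in wild type and 11758, 11535, 11846, 11647 and 11697 in mutant arrays. Rpl37a, of the large subunit, had 11248, 10278, 11867, 12271 and 12425 in wild type and 10832, 11298, 11040, 11594 and 11629 in mutant arrays. The groups overlapped for both genes.

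The signals of the bright genes also varied little. The median within-group SD over all 10 arrays was 0.064 on the log2 scale for the 41 ribosomal genes, against 0.15 for all 11601 genes tested. It was 0.059 for the 34 bright genes, from 0.019 for Rpl10a to 0.14 for Rps18, and 0.28 for the 7 dimmer ones. The standard error of the difference had a median of 0.039 over the 34 bright genes in both fits. With saturation not tested, these errors do not show how small a change in RNA could be seen. The 5 members with the largest spread were Rpl27a, Rpl14, Rpl12, Rps6 and Rps4l. Rpl27a, a large subunit protein, gave 199, 260, 196, 410 and 423 in wild type and 197, 269, 168, 439 and 478 in mutant arrays. Its 4 arrays numbered 4 and 5 were thus all above its 6 arrays numbered 1 to 3, in both groups, with a difference of 1.05 on the log2 scale. Rpl14 had 599, 1302, 548, 595 and 833 in wild type and 550, 1051, 926, 516 and 532 in mutant arrays, with both arrays numbered 2 the highest. Rpl12, a large subunit protein near the stalk, had 300, 375, 268, 416 and 620 in wild type and 314, 263, 301, 472 and 328 in mutant arrays.

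**Figure D1:**
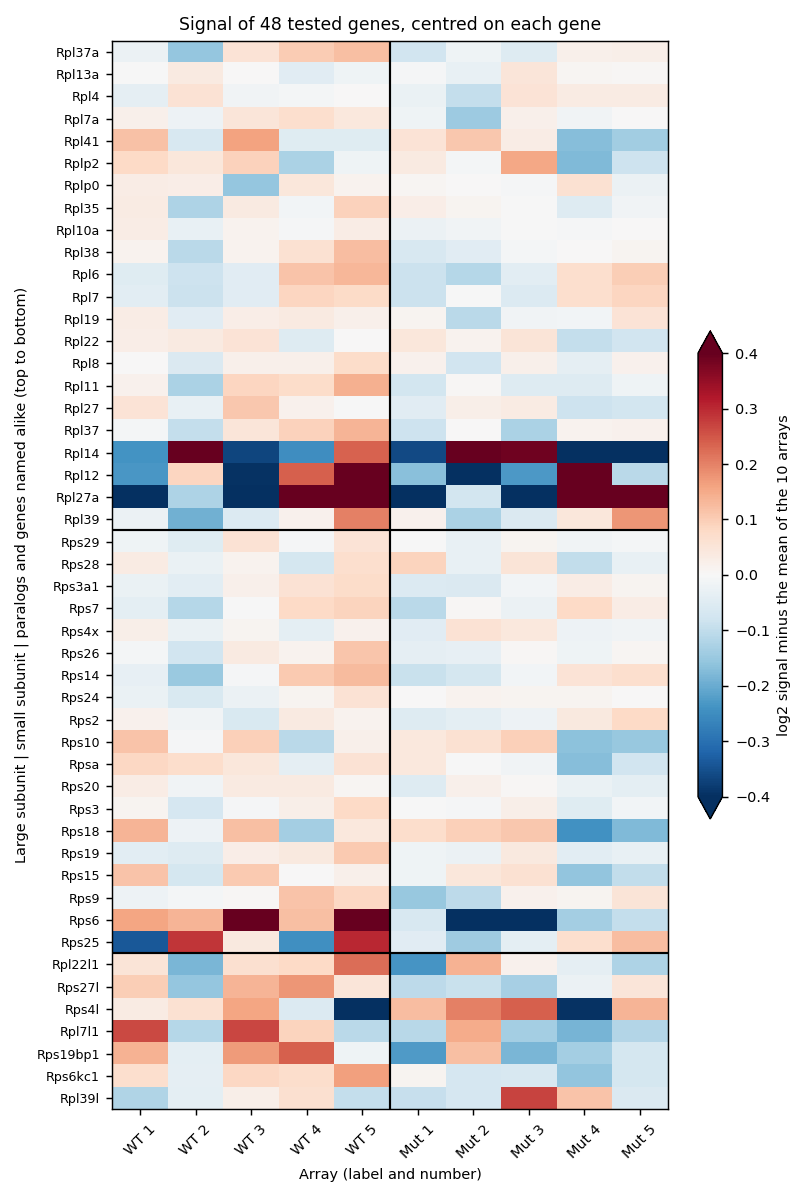
Heat map of the log2 signal of 48 tested genes (rows, grouped as large subunit, small subunit, and paralogs with genes named alike) in 10 arrays (columns), each gene centred on its mean over the arrays; the colour scale ends at 0.4 in either direction. Most rows are pale, as the median within-group SD of 0.064 for ribosomal genes implies, and the strong colours fall in a few dimmer genes such as Rpl27a, Rpl14 and Rpl12.

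The dimmest members were Rpl39l, which passed the filter, and Rps27, Rpl3l, Rps6kl1 and Rps16, which did not and were not tested. The filter lay at a signal of 151. Rps27 and Rps16 are small subunit genes, and their probe sets of 1 symbol had geometric means of 111 and 33.4. Rpl3l, a muscle form of Rpl3, had signals between 85.9 and 115, and Rps6kl1, a kinase-like gene, between 88.9 and 109. The 48 other members were tested: all 22 large subunit genes, 19 of the 21 small subunit genes, 5 of the 6 paralogs and 2 of the 3 genes named alike.

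Over all 10 arrays as labelled, no ribosomal protein gene passed the test. Of the 48 tested members 0 had an adjusted p under 0.05 in limma, and the background was 0% of 22519 probe sets (0 calls, with 632 at an unadjusted p under 0.05). Without adjustment, 2 of the 48 (Rps6 and Rps19bp1) had p under 0.05 with lower signal in the mutant, and 0 with higher signal, against 2.57% of all genes that were lower at that level. The median difference of the 48 genes was -0.030 on the log2 scale, or -2.03%, beside -0.026 for all genes tested. It was negative for 38 of the 48 (79.2%), beside 61.7% of all genes. Rps6 was the 1 member whose mutant arrays all lay below all wild type arrays, which 0.31% of all genes did.

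Over the 8 arrays without number 2 and with no block, 0 of the 48 members were called, beside 1.68% of probe sets (378 calls), and the lowest adjusted p was 0.128 (Rpl11). Without adjustment, 7 of 48 members had p under 0.05 with lower signal in the mutant and 0 with higher signal, beside 9.29% of all genes that were lower at that level. The 7 were Rpl11, Rps6, Rps27l, Rpl22l1, Rpl7l1, Rps19bp1 and Rps6kc1, so 2 were ribosomal genes, 3 paralogs and 2 genes named alike. The median difference of the 48 was -0.044 (-2.99%), beside -0.013 for all genes, and 38 of the 48 (79.2%) were negative, beside 54.2%. In 8 members (Rpl38, Rps20, Rpl11, Rps6, Rpl22l1, Rpl7l1, Rps19bp1 and Rps6kc1) all 4 mutant arrays lay below all 4 wild type arrays, which 6.19% of all genes did. The fit with the number as a block called 1219 probe sets (5.41%), with 1 member among them, Rpl11 (-0.13, adjusted p = 0.0374). At an unadjusted p under 0.05 the block gave 16 of 48 members with lower signal and 0 with higher signal, beside 15.1% of all genes that were lower at that level. The share of all genes with higher signal at that level was not counted in any fit. In the 8-array fit without the block, 118 of all 11601 genes tested were called lower and 132 higher after adjustment. The labels do not say that equal numbers share a litter or batch. Wild type array 5 bears on the values without the block: without it the 8-array median was -0.022, beside -0.015 for all genes. In that fit 2 members, Rpl7l1 (-0.34, adjusted p = 0.0466) and Rps19bp1 (-0.34, adjusted p = 0.0480), were called, among 745 calls over all 22519 probe sets.

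**Figure D2:**
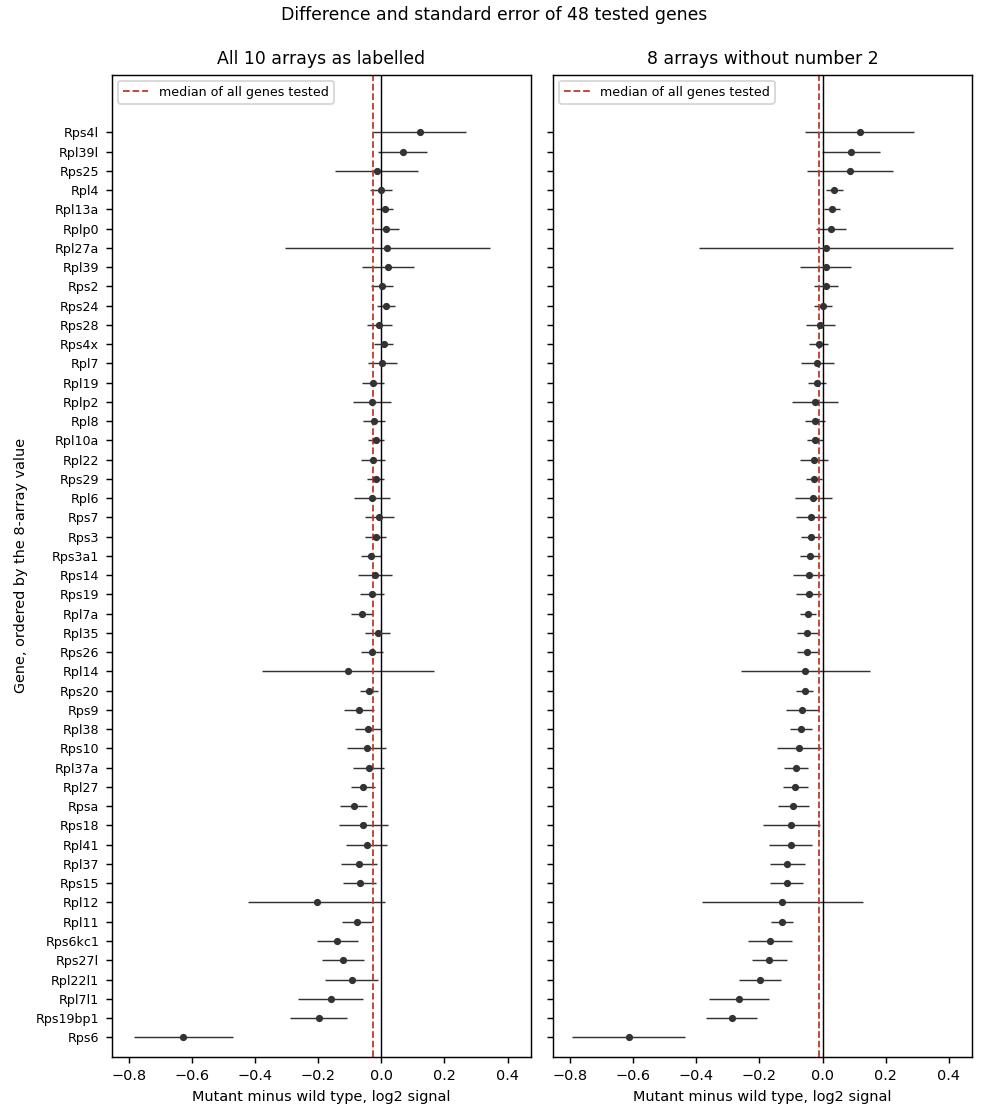
Difference between mutant and wild type arrays in log2 signal (points) with its standard error (bars) for 48 tested genes, over all 10 arrays (left) and 8 arrays without number 2 (right); the dashed line is the median of all genes tested. The dashed lines stand at -0.026 and -0.013. Most points lie just below 0, close to the medians of the 48 genes (-0.030 and -0.044, not drawn), and Rps6 stands apart at -0.63 and -0.61.

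The overall level of the 41 tested ribosomal genes, as the geometric mean of their signals, was 5570, 5577, 5637, 5713 and 6093 in wild type arrays 1 to 5. In mutant arrays 1 to 5 it was 5445, 5498, 5530, 5563 and 5620. The highest value was wild type array 5, and the groups overlapped, since mutant array 5 lay above wild type arrays 1 and 2. Within each of the 5 numbers the mutant value was the lower of the pair. Over the 34 bright genes alone this held in 4 of 5 numbers, and in number 2 the wild type array had a level of 8714 and the mutant array 8869. The level over all 11601 genes tested was also lower in the mutant in each of the 5 numbers. It was 450, 449, 453, 435 and 435 in wild type arrays 1 to 5 and 444, 430, 445, 429 and 430 in mutant arrays 1 to 5.

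Rps6 stood apart from the other members. It codes for a small subunit protein whose phosphorylation by S6 kinase is a standard readout of mTOR signalling. Its probe set 1416142_at gave 790, 778, 984, 770 and 1136 in wild type arrays 1 to 5 (mean 892 ± 163, SD, n = 5) and 678, 488, 427, 645 and 663 in mutant arrays (580 ± 115, SD, n = 5). Every mutant array was below every wild type array, number 2 included. The log2 difference was -0.63 (SE 0.16) over 10 arrays, with an unadjusted p of 0.0020 and an adjusted p of 1.00 in limma, and -0.61 (SE 0.18, adjusted p = 0.153) over 8. An exact two-sided permutation test of this single value over 10 arrays gave p = 0.00794, the smallest it can give. Rps6 was on a preset list, but that list was made with earlier results of these data known, so this p is a description.

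Other probe sets that match Rps6 did not show a difference of that size. A further 9 probe sets list Rps6 beside other symbols, and 8 of these had a mean signal over 1000. Their differences ran from -0.064 to 0.0063 over 10 arrays and from -0.078 to -0.017 over 8, with lowest adjusted p-values of 1.00 and 0.646. The other probe set of Rps6 alone, 1453466_at, was dim, with signals of about 40 to 52, and was not tested. It did not show the fall, with differences of 0.40, 0.29, -0.12, 0.21 and -0.038 in numbers 1 to 5. Which part of the transcript each probe set reads was not analysed here.

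Among large subunit genes the median difference was -0.027 over 10 arrays and -0.028 over 8, and 17 of the 22 were negative in either fit. Rpl11, which can bind Mdm2 and stabilise p53 when ribosome assembly fails, gave 7675, 6955, 8054, 7984 and 8371 in wild type and 7213, 7612, 7315, 7322 and 7495 in mutant arrays. Without number 2 its groups did not overlap, and in number 2 the order was turned. Its log2 difference was -0.077 over 10 arrays and -0.13 (SE 0.035, adjusted p = 0.128) over 8. With the array number as a block its adjusted p was 0.0374.

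Rpl38, whose loss in mice alters the axial skeleton and the translation of Hox messages, had 8957, 8228, 8958, 9259 and 9654 in wild type and 8494, 8591, 8829, 8882 and 8943 in mutant arrays. Its groups overlapped over 10 arrays and not over 8, where the difference was -0.067 (SE 0.035, adjusted p = 0.489). Rpl7a had 10240, 9958, 10455, 10582 and 10414 in wild type and 9996, 9135, 10257, 10002 and 10113 in mutant arrays, lower in the mutant in 5 of 5 numbers, with a difference of -0.062 (SE 0.035) over 10 arrays. Rpl41 and Rpl37 were at -0.10 and -0.11 over 8 arrays, with adjusted p-values of 0.648 and 0.456. On the other side, Rpl4 was at 0.037 (SE 0.027) and Rpl13a at 0.030 (SE 0.026) over 8 arrays. Rpl22, the partner of the paralog Rpl22l1, had 8172, 8226, 8338, 7752 and 8035 in wild type and 8282, 8101, 8320, 7512 and 7620 in mutant arrays, at -0.026 (adjusted p = 0.913) over 8. Its other probe sets fell more. Probe set 1416603_at was lower in the mutant in 5 of 5 numbers, at -0.074 (SE 0.041) over 10 arrays. Probe set 1448398_s_at differed by -0.11, 0.48, -0.17, -0.31 and -0.95 in numbers 1 to 5.

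The stalk of the large subunit recruits translation factors. Its base protein Rplp0, often used as a reference gene, had 9558, 9554, 8417, 9670 and 9464 in wild type and 9420, 9384, 9332, 9771 and 9224 in mutant arrays. The groups overlapped, with wild type array 3 lowest of all, and the difference was 0.016 (SE 0.040) over 10 arrays and 0.026 (SE 0.047) over 8. The stalk protein Rplp2 was at -0.029 and -0.024.

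Among small subunit genes the median difference was -0.030 over 10 arrays and -0.043 over 8, and 16 of the 19 were negative in either fit. Rpsa, which is also known as the laminin receptor, had 9095, 9012, 8851, 8366 and 8929 in wild type and 8835, 8580, 8500, 7619 and 8143 in mutant arrays. It was lower in the mutant in 5 of 5 numbers, although the groups overlapped, with a difference of -0.088 (SE 0.043) over 10 arrays and -0.092 (adjusted p = 0.510) over 8. Rps20 had 8728, 8454, 8755, 8755 and 8594 in wild type and 8243, 8657, 8565, 8384 and 8314 in mutant arrays, at -0.056 (adjusted p = 0.453) over 8. Its other bright probe set, 1456373_x_at, differed by -0.054, 0.011, -0.0026, -0.048 and -0.060 in numbers 1 to 5. A dimmer tested one, 1450417_a_at, mostly went the other way, at 0.19, -0.31, 0.46, -0.0097 and 0.20. Rps19, mutated in Diamond-Blackfan anaemia, had 7623, 7573, 8002, 8063 and 8455 in wild type and 7769, 7723, 8074, 7622 and 7696 in mutant arrays, which overlap, and stood at -0.044 (adjusted p = 0.769) over 8. Rps25, used by some viral internal ribosome entry sites, was at 0.088 (SE 0.14), and Rps2 at 0.011 and Rps24 at 0.0013 over 8 arrays were the other 2 small subunit genes above 0.

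None of the 5 tested paralogs was called. Their median difference was -0.094 over 10 arrays and -0.17 over 8. Rpl22l1 had 4395, 3736, 4434, 4484 and 4954 in wild type and 3605, 4677, 4296, 4136 and 3898 in mutant arrays. The array labelled mutant 2 was above every wild type array except number 5, and without number 2 the groups did not overlap (-0.20, SE 0.066, adjusted p = 0.217). Rps27l, a p53 target that resembles Rps27, had 3822, 3208, 3926, 4031 and 3687 in wild type and 3317, 3354, 3257, 3509 and 3690 in mutant arrays. It stood at -0.17 (SE 0.056, adjusted p = 0.217) over 8 arrays, where mutant array 5 alone reached the wild type range.

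Rpl7l1, a relative of Rpl7 that works in ribosome assembly, had 1038, 799, 1040, 920 and 803 in wild type and 801, 958, 787, 761 and 798 in mutant arrays. Without number 2 the groups were apart, with wild type array 5 only just above the mutants, and the difference was -0.26 (SE 0.096, adjusted p = 0.265). Rps4l had 1098, 1118, 1197, 1032 and 756 in wild type and 1169, 1233, 1266, 816 and 1177 in mutant arrays, at 0.12 (SE 0.15) over 10 arrays, with 1 low array in each group. Rpl39l, a testis-enriched form of Rpl39, was at 0.091 (SE 0.091) over 8 arrays.

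Neither of the 2 tested genes named alike was called, and Rps6kl1, which was not tested, stood at 0.066 over 10 arrays and 0.11 over 8. Rps19bp1, a nucleolar protein that binds Rps19, had 552, 488, 564, 591 and 495 in wild type and 428, 545, 441, 456 and 478 in mutant arrays, at -0.20 (SE 0.090) over 10 arrays and -0.29 (SE 0.082, adjusted p = 0.143) over 8. The groups were apart without number 2, where the order was turned. Rps6kc1, a kinase-like gene, had 349, 325, 352, 349 and 373 in wild type and 335, 318, 319, 298 and 317 in mutant arrays. It was lower in the mutant in 5 of 5 numbers, at -0.14 (SE 0.065) over 10 arrays and -0.17 (adjusted p = 0.348) over 8.

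**Figure D3:**
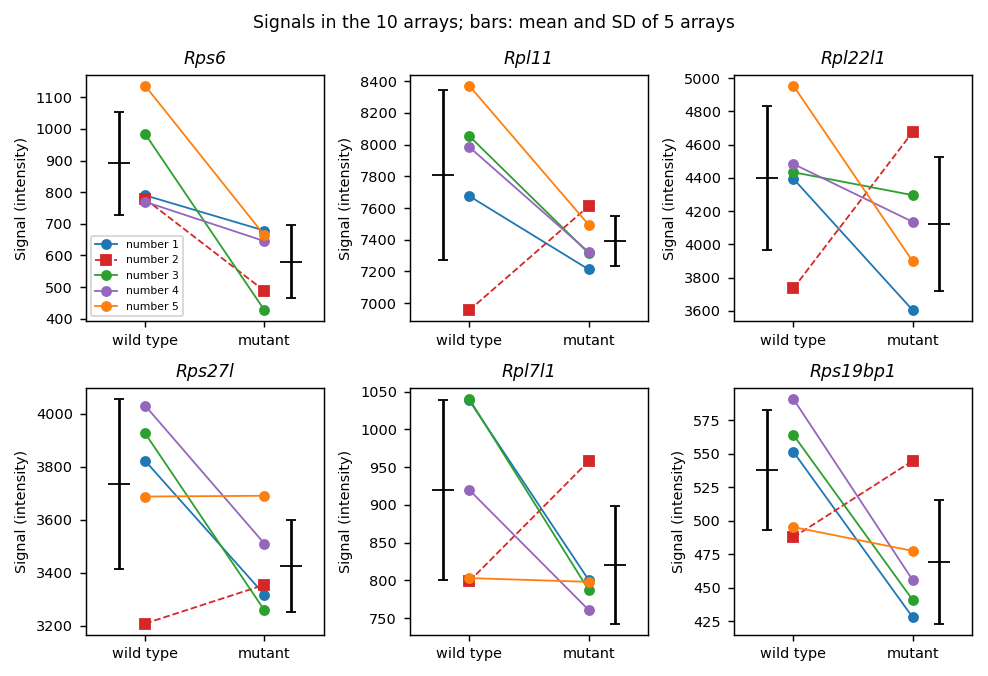
Signals of 6 genes in wild type and mutant arrays, joined by array number, with the mean and SD of 5 arrays beside each group; the vertical axes differ and do not start at 0. The dashed line of number 2 rises in 5 of the 6 panels, while in Rps6 all 5 lines go down.

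Number 2 differed from the other numbers in the members too. The median difference of the 41 ribosomal genes within numbers 1 to 5 was -0.042, 0.028, -0.012, -0.047 and -0.065, and the number of genes lower in the mutant was 31, 18, 25, 31 and 35. For all genes tested the medians were -0.017, -0.055, -0.0069, -0.0088 and -0.027. The ribosomal median was thus below that of all genes in numbers 1, 3, 4 and 5 and above it in number 2, the number in which Dicer1 also goes against the labels. Small subunit genes stood at -0.057, 0.034, -0.012, -0.050 and -0.093 and large subunit genes at -0.036, -0.0022, -0.014, -0.046 and -0.061. Over all 5 numbers, 5 of 48 members (Rps6, Rpsa, Rpl7a, Rps3a1 and Rps6kc1) were lower in the mutant every time, beside 4.99% of all genes. Over the 4 numbers without number 2, 21 of 48 were lower every time, beside 19.3% of all genes. A further 2 (Rpl4 and Rpl39l) were higher every time, and the share of all genes that were higher every time was not counted. Of the 17 ribosomal genes among those 21, 13 were higher and 4 lower in the mutant in number 2. That share (76.5%) was close to that of all 2240 genes lower in the 4 other numbers, of which 1661 (74.2%) were higher in number 2.

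**Figure D4:**
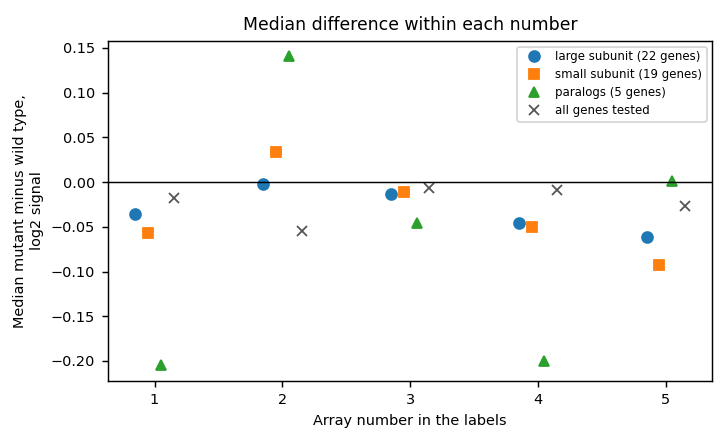
Median difference between mutant and wild type arrays of the same number in log2 signal, for large subunit genes, small subunit genes, paralogs and all genes tested. Ribosomal medians lie below those of all genes in numbers 1, 3, 4 and 5; in number 2 the small subunit median is 0.034 and that of all genes -0.055.

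A second difference, between array numbers, ran across both groups and the whole array. In 4 of the 34 bright genes (Rps7, Rps14, Rpl6 and Rpl7) all 4 arrays numbered 4 and 5 lay above all 6 arrays numbered 1 to 3, and in 2 (Rplp2 and Rpl22) all lay below. These are 11.8% and 5.88% of the 34, beside 7.09% and 13.2% of all genes tested, so the bright members did not stand out by these counts. Rpl6 had 8339, 8138 and 8358 in wild type arrays 1 to 3 and 9337 and 9459 in arrays 4 and 5. In mutant arrays it had 8128, 7966 and 8370, then 9036 and 9238. Rps18 lay on the other side, with 8917, 8003, 8829, 7382 and 8368 in wild type and 8533, 8668, 8758, 6871 and 7188 in mutant arrays. The differences between numbers 4 and 5 and numbers 1 to 3 reached 0.17 for Rpl6 and -0.21 for Rps18 on the log2 scale. Those between mutant and wild type among the 34 bright genes over 8 arrays ran from -0.13 (Rpl11) to 0.037 (Rpl4). The labels do not say what the numbers stand for.

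Probe sets of the same gene did not always point the same way. Of the 95 tested probe sets of members 0 were called in either fit. In 21 genes more than 1 probe set was tested, and their signs were opposite in 7 genes over 10 arrays and in 6 over 8. For Rpl41 the brightest probe set stood at -0.10 over 8 arrays and 2 dim ones at 0.17 and 0.20.

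Genes around the ribosome were also looked at as lists, in the same fits. Fau, whose product is cut to give a small subunit protein, stood at -0.11 (SE 0.047, adjusted p = 0.386) over 8 arrays, and no other ribosomal protein gene outside the name rule was read by a probe set of its own. Of 37 tested ribosome assembly genes 0 were called over 10 arrays or over 8 without the block. With the block over 8 arrays, Tsr1 was called higher (0.46, adjusted p = 0.0132) and Nip7, which acts in assembly of the large subunit, lower (-0.28, adjusted p = 0.0457). That fit called 1219 of all 22519 probe sets (5.41%), so such a count in 37 genes does not set the list apart. Over 8 arrays the median of the 37 was 0.079, beside -0.013 for all genes, and 9 of the 37 stood below 0. Over 10 arrays the median was -0.00063. Tsr1, needed to mature the small subunit, had 892, 1398, 886, 814 and 776 in wild type and 1235, 831, 1264, 1129 and 1002 in mutant arrays. Without number 2 every mutant array was above every wild type array (SE 0.095, adjusted p = 0.0510 without the block), the opposite side from most ribosomal genes, and in number 2 the order was turned.

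Translation factors gave the 1 call among these lists without the block. Btf3, a partner of the nascent chain at the ribosome exit, had 3848, 3348, 3898, 3808 and 3853 in wild type and 3205, 3743, 3381, 3376 and 3246 in mutant arrays, with number 2 turned. It fell by 0.22 on the log2 scale over 8 arrays (SE 0.043, adjusted p = 0.0404). It was the 1 of 33 tested factors called, beside 1.68% of all probe sets. With the block it was called again (adjusted p = 0.0250), beside Eif3k, a subunit of initiation factor eIF3 (-0.22, adjusted p = 0.0440). These were 2 of the 33 factors, and the fit with the block called 5.41% of all probe sets. The call without the block was lost when mutant array 1 (-0.21), 3 (-0.23), 4 (-0.23) or 5 (-0.21), or wild type array 1 (-0.22), 3 (-0.22) or 4 (-0.23), was left out. The factors' median was -0.014. Among 15 tested genes of RNA polymerase I and Myc 0 were called, with a median of 0.017, and Polr1d had the smallest p (-0.17, adjusted p = 0.334). Among 11 tested mTOR and TOP regulators 0 were called, with a median of 0.0074, and Mtor, the kinase itself, stood at 0.27 (SE 0.073, adjusted p = 0.130). With the block 1 of the 11, Larp4, was called higher (0.36, adjusted p = 0.0369), beside 5.41% of all probe sets called in that fit. Among 11 tested p53 and ribosome stress genes 0 were called, with a median of -0.023, and Ccng1, a p53 target, stood at 0.39 (adjusted p = 0.251, and 0.0445 with the block). Over 10 arrays 0 genes of these lists were called.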

How the data were processed

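Biotinylated cRNA from the total RNA of 10 samples was hybridised to Affymetrix arrays, 1 sample an array, per the labels' protocols. The authors deposited linear intensity values for 45101 probe sets; the submitters' processing notes name GCOS 1.3, and neither the summarization nor the scaling is given in those sources. Trimmed means (2%) ran from 276 to 289 over the arrays, so no normalization was added. The platform annotation gave 34945 probe sets 1 symbol, 932 several and 9160 none; 64 control probe sets were left out. All 52 members had gene identifiers in the RefSeq table (0 symbols to update).

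Intensities were floored at 1 and log2 was taken. Probe sets with a mean at or above the median (signal 151) were tested, 22519 in all, with limma 3.58.1 in R 4.3.3 (lmFit, eBayes with intensity trend) and Benjamini-Hochberg adjustment at 0.05. The script was tested on simulated data. No detection calls were used. The members, lists and the 8-array comparison were chosen with earlier results of these data known. The labels do not say what array numbers share. Over 8 arrays the correlation between the 2 arrays of a number, each centred on its group, was 0.55, 0.55, 0.71 and 0.32. The highest correlation with an array of another number in the other group was 0.54, 0.54, 0.52 and 0.52. Only number 4 thus stood clearly above, and for number 5 a different number correlated better. The numbers were taken to pair the arrays and a fit with the number as a block was added, so its calls rest on that choice. Over 10 arrays number 2 correlated at -0.18 and no pairing was taken. Named genes were called members; the 6 with the smallest p in each direction; the 5 brightest, dimmest and most variable; the paralogs and genes named alike; 9 preset genes (Rps6, Rpl5, Rpl11, Rps19, Rpl38, Rpl24, Rpl10, Rplp0 and Rpsa); and from each other list its called genes or the 1 with the smallest p. Others named in counts were chosen after their values were seen.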

Additional observations from a re-analysis of the deposited data

Results flagged for a closer look

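In 8 of 110 groups of 5 arrays examined, 1 array stood so far from its nearest neighbour that the gap, as a share of the group's range, passed Dixon's critical value of 0.71; chance alone gives about 1 in 20. For Dicer1, the array labelled mutant 2 gave 360 where the other mutant arrays lay between 205 and 226 (1427941_at), and 774 where they lay between 506 and 555 (1460571_at). The same array gave Rpl7l1 a signal of 958, with the other mutants at 761 to 801, and Rpl7a a signal of 9135, with the others at 9996 to 10257. Mutant array 4 gave Rps4l a signal of 816, against 1169 to 1266. In wild type arrays, Rplp0 was 8417 in array 3 against 9464 to 9670, and Rpl19 was 7901 in array 2 against 8276 to 8359. The level over the 41 ribosomal genes was 6093 in wild type array 5, against 5570 to 5713 in the other wild type arrays.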

How the results depend on the processing

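The median over the members kept its sign under every alternative run: from -0.062 to -0.015 over 10 arrays (26 alternatives) and from -0.062 to -0.022 over 8 (24 alternatives). Quantile normalization brought the medians to -0.015, beside -0.0032 for all genes, and to -0.024, beside -0.00033. The median of all genes tested was also negative in every fit. With array weights it lay below that of the members, at -0.039 beside -0.020 over 10 arrays and -0.040 beside -0.032 over 8. Over 10 arrays it lay below in some other fits too, as without wild type array 5 (-0.031 beside -0.015), and above in the rest. In every other fit over 8 arrays it lay above. The count of called members was 0 over 10 arrays and 1 (Rpl7l1) in numbers 1 and 3 alone. Over 8 arrays it was 0, and became 6 with array weights (Rpl27, Rpl41, Rpl7l1, Rps15, Rps19bp1 and Rps6, among 2612 calls over all probe sets), 1 (Rpl7l1) in numbers 1 and 3 alone and 1 (Rpl11) with the replicate number as a block, which changed no other call of a member or of Dicer1 over 8 arrays. Leaving out 1 array at a time gave 0 to 2, the 2 without wild type array 5, among 745 calls over all probe sets. Over all probe sets the 378 calls of the 8-array fit became 93 to 745 with 1 array left out, 812 in numbers 1 and 3, 0 in numbers 4 and 5 and 1219 with the replicate block. For Dicer1 the differences in numbers 1 and 3 alone were -0.83 and -0.50, past the threshold, and in numbers 4 and 5 alone -1.32 and -0.65, not past it. Leaving out 1 array of the 8 gave -1.18 to -0.87 for 1427941_at and -0.63 to -0.49 for 1460571_at. Both Dicer1 calls were lost without mutant array 1, 3, 4 or 5 or wild type array 1, and that of 1460571_at also without wild type array 3. The causes were not tested. Signals near the top of the scale and the number of arrays limit what could be detected; without detection calls, the distance of dim members from background is unknown.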
